A study of Mus musculus with 11 samples.

Results

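The genes described here encode the proteins of the cytosolic ribosome, and they were followed in mouse hippocampus after deletion of the non-coding 1b interval of Scn1a, a gene for a voltage-gated sodium channel subunit. They were chosen by a fixed pattern of Rpl, Rplp, Rps and Rpsa symbols that leaves out pseudogene names, and no expression value entered that pattern. Earlier results of these data were known when it was chosen. A total of 83 symbols matched in each of the 2 sets of counts, 51 of the large subunit and 32 of the small subunit. Of these, 78 reached at least 1 CPM (a count scaled to the size of its library) in at least 1 library of the heterozygous round and 77 did so in the homozygous round, among 14630 and 14838 genes that passed the same filter. The remaining 5 symbols, Rpl26, Rpl30, Rpl10l, Rpl39l and Rpl3l, stayed below it in both tables.

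Hippocampus was taken from 1 hemisphere at postnatal day 32, an age the sample labels call adult, and RNA was sequenced in 2 rounds. The homozygous round held 2 WT mice (both female) and 2 1b-/- mice (1 male, 1 female), and the heterozygous round 3 WT mice (all male) and 4 1b+/- mice (3 males, 1 female). All 11 mice were C57BL/6N and have no treatment in the labels, and both deletion genotypes came from 1 line made by Cas9 cutting in oocytes and kept by crossing male carriers to WT females. The homozygous round was read single-end over 50 bases and the heterozygous round paired-end over 150 bases.

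A ribosome joins a small subunit, which reads the mRNA, to a large subunit, which forms the peptide bond and holds the exit tunnel. Its protein parts are needed in near-equal numbers, and many of their mRNAs open with a cytosine followed by a run of pyrimidines, through which mTOR signalling and Larp1 adjust their translation. In neurons ribosomal protein mRNAs are found in dendrites and axons as well as in the cell body. Most of these genes are short and have many processed pseudogene copies in the mouse genome, so short reads from them can match more than 1 place.

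The repeated sequence was measured first, because it bears on every count below. Coding sequence was found for 82 of the 83 symbols in the mm9 annotation (Rpl41 had none), and every stretch of 50 bases was searched for in the rest of the mm9 genome. The median gene had 89.9% of its stretches of 50 bases present elsewhere, against 0% for the 12990 other genes tested in the heterozygous round, for which 1 stretch in 10 was searched. For 28 of the 82 every stretch had a copy elsewhere (34.1%, against 0.547% of the other genes). With stretches of 150 bases the median fell to 49.6%. The stretches below show the high end of that scale, as coding bases in lower case. The stretch of Rps6, the small subunit protein that S6 kinase phosphorylates, lies at coding bases 471 to 520 and has 15 copies elsewhere. The stretch of Rpl10, a late-joining protein of the large subunit, lies at bases 124 to 173 and has 10 copies.
Rps6: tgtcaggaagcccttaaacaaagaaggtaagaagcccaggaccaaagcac
Rpl10: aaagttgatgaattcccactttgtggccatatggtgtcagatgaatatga
In mm9 Rps6 is annotated on the minus strand at chr4:86500564-86503316 and Rpl10 on the plus strand at chrX:71516151-71518474.

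Rps4x and Rps4l are 2 versions of the same small subunit protein gene, and they are shown because Rps4l was the single member that passed the test between 1b-/- and WT mice. Rps4x lies on the minus strand at chrX:99380280-99384733 and Rps4l, annotated as 1 exon, on the plus strand at chr6:148303178-148304120 (mm9). Their coding sequences were identical at 632 of 792 aligned positions (79.8%) and shared none of the 740 stretches of 50 bases of Rps4l. The pair is printed over coding bases 91 to 150, with the 16 differing bases in capitals.
Rps4x: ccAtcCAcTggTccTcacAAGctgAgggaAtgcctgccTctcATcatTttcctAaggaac
Rps4l: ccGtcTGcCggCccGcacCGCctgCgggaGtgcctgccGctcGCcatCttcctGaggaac
Only 18.0% of the stretches of 50 bases of Rps4l were found elsewhere, at 1 other place, and none of its stretches of 150 bases.

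Transcription start regions were available from RefSeq (GRCm38.p6) for 62 of the 83 genes, as 74 promoters of 300 bases. A C at the start followed by at least 4 bases that are C or T was present in 13 of 74 (17.6%), against 2.51% of all 32851 promoters. The letters CTTTC, searched on the sense strand from 10 bases before to 20 after the start, were in 20.3% against 3.74%, CTTCCG on either strand in 59.5% against 16.85%, and CTCGCGAG, its own reverse complement, in 10.8% against 0.92%. The first 4 of the sequences below have a C at the start followed by at least 4 C or T, and the last 2 do not. Those last 2 have a shorter run of C and T at the start. Each covers 30 bases before the start and 20 from it onward, with the run of C and T around the start in capitals.
Rps6: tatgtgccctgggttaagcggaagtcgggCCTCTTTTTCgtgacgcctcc
Rpl35: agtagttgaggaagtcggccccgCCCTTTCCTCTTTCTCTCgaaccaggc
Rplp2: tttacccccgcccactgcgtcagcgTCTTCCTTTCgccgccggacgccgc
Rps10: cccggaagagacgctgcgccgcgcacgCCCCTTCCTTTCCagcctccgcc
Rpl39: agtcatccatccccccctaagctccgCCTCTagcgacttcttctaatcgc
Rps28: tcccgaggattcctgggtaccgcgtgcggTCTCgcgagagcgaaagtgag
They lie at chr4:86857348-86857397 (minus), chr2:39005112-39005161 (minus), chr7:141447621-141447670 (plus), chr17:27635225-27635274 (minus), chrX:37085203-37085252 (minus) and chr17:33824543-33824592 (minus).

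Library totals ran from 20667122 to 36145161 counts. Scn1a stood at 113 to 171 CPM in WT and 83.4 to 119 CPM in 1b+/- mice, and at 134 to 173 CPM in WT and 16.7 to 26.3 CPM in 1b-/- mice, each scaled within its round. Marker genes of striatum, a brain region other than the one labelled, summed to 3558 and 8505 CPM in the 2 WT libraries of the homozygous round and to between 285.4 and 488.7 CPM in the 9 others. In those same 2 WT libraries CA1 and CA3 pyramidal cell markers summed to 164.2 to 198.0 CPM and dentate granule cell markers to 151.6 to 158.7 CPM, each below all 9 others. Choroid plexus markers reached 13830 CPM in 1b-/- replicate 2 and 62.95 CPM in replicate 1. Rn45s, the precursor of ribosomal RNA, held 2.38 to 4.45% of heterozygous-round counts but 0.0718 to 0.144% of homozygous-round counts. The part of each of these in the results below was not tested, and with bulk tissue fewer cells of a type and less RNA per cell cannot be told apart.

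Ribosomal protein transcripts made up close to 1% of every library. The share was 0.968, 0.994 and 1.005% in heterozygous-round WT mice and 0.938, 0.954, 0.944 and 0.984% in the 1b+/- mice, or 0.989% ± 0.0188 (SD, n = 3) and 0.955% ± 0.0204 (SD, n = 4). One 1b+/- library, replicate 4, lay above the lowest WT library, so the groups overlapped. In the homozygous round the share was 1.014 and 0.944% in WT and 0.981 and 0.932% in 1b-/- mice, and these groups overlapped as well. Exact binomial intervals (95%, counting error only) were at most 0.00842 percentage points wide, far less than the spread between mice. After TMM scaling within a round, which sets each library's factor from the bulk of its genes, the summed level was 9692 to 10130 CPM in WT and 9358 to 9616 CPM in 1b+/- mice, without overlap, and 9135 to 9982 CPM in WT and 9566 to 10070 CPM in 1b-/- mice, with overlap.

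**Figure D1:**
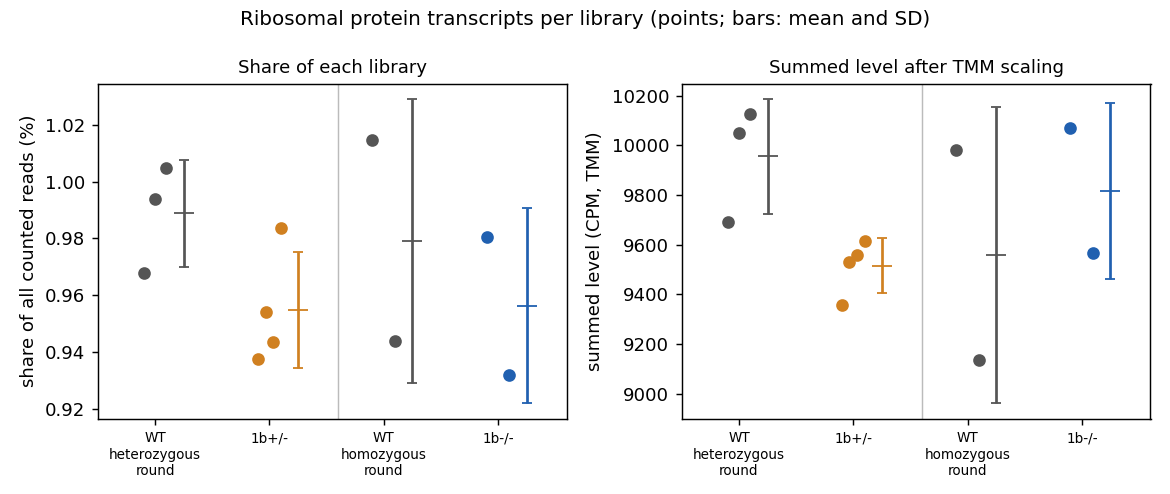
The left panel plots the share of all counted reads that fell on ribosomal protein genes (percent, axis not from 0) and the right panel their summed CPM after TMM scaling within a round, each point 1 library and each bar a group mean with its SD. The 1b+/- libraries lie at 9358 to 9616 CPM, under the 3 WT libraries of their round at 9692 to 10130 CPM, while WT and 1b-/- libraries overlap.

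Per 1000 coding bases, and leaving out Rpl41, for which no coding length was found, the highest level in WT mice of both rounds belonged to Rps29, a small zinc-binding protein of the small subunit (805 CPM in the heterozygous and 1393 CPM in the homozygous round, each scaled within its round), followed by Rplp1, an acidic protein of the stalk that recruits elongation factors (579 and 973 CPM). The median over the genes past the filter of the heterozygous round was 246.8 and 204.3 CPM per 1000 bases. Without regard to length, the highest mean CPM over the 11 libraries was that of Rpl4 (393.5), Rpl3 (331.0), Rpsa (309.5), Rps2 (265.8) and Rplp1 (254.5). The rounds did not share that order: in WT mice, each round scaled on its own, Rpl3 was at 405.5 and Rpl4 at 355.0 CPM in the heterozygous round, against 215.9 and 463.8 CPM in the homozygous round, where Rplp1 was at 335.5 CPM. At the other end, Rpl10l was at 0 counts in all 11 libraries, and Rpl26, an ordinary large subunit protein gene, had 0 counts in every heterozygous-round library and at most 0.0284 CPM in the other round. Rpl30 had 3 to 10 counts per library of the heterozygous round, Rps27 19 to 44 and Rpl34 15 to 27. A count of 0 allows up to 3 counts in such a library, and why these genes were counted so rarely was not tested.

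Each pair of related genes kept a fixed order of counts. Rpl7l1 held 19.1 to 20.3% of the counts of the pair with Rpl7 in WT mice of the heterozygous round, and 16.3 to 16.4% in WT and 19.1 to 19.6% in 1b-/- mice. Rpl22l1, the paralog of the RNA-binding Rpl22, held 30.3 to 32.3% in WT and 28.0 to 30.2% in 1b+/- mice, against 12.8 to 14.2% in WT and 11.3 to 13.1% in 1b-/- mice of the other round. Rpl3l and Rpl39l, known from muscle and testis, held at most 0.303% and 0.265% of their pairs in any group. Rps27l held 79.0 to 89.1% of the pair with Rps27 over all groups. Every stretch of 50 and of 150 bases of Rps27 had a copy elsewhere, whereas no stretch of 150 bases of Rps27l did. Rps27 was also among the rarely counted genes named above. The share is therefore one of counted reads, and which of the 2 genes is the more expressed was not tested. Rps4l held 10.5 to 14.1% of its pair in WT and 10.7 to 11.5% in 1b+/- mice, but 6.80 to 7.35% in WT and 20.6 to 23.0% in 1b-/- mice.

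The comparison of 1b+/- with WT mice asked whether loss of 1 copy of the interval moved these genes. No member passed the test (0 of 78 by edgeR's quasi-likelihood test at an adjusted p of 0.05, where 0.0% of all 14630 genes passed), and DESeq2 (1.67% of all genes) and the likelihood ratio test (1.31%) called 0 members as well. The estimates nevertheless lay on 1 side. Of the 78 genes 77 had a lower estimate in 1b+/- mice, all 46 of the large subunit and 31 of 32 of the small subunit, with a median log2 fold change of -0.06 and an interquartile range of -0.10 to -0.04. Over all genes tested 49.7% had a lower estimate and the median was 0.00. Lower estimates numbered 71 when counts were scaled by library totals and 74 with upper-quartile factors. At an unadjusted p under 0.05, 20 members were lower and 0 higher, against 5.95% of all genes lower, and in 24 members all 4 1b+/- libraries lay below all 3 WT libraries, against 6.25% of all genes.

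The size of these differences was small and close to the spread between mice. Rpl41, the shortest of the ribosomal proteins, was at 107.6, 115.2 and 117.5 CPM in WT and at 94.7, 104.1, 105.5 and 99.6 CPM in 1b+/- mice. All 4 values were below the WT values, with a log2 fold change of -0.17 (SE 0.05, edgeR adjusted p = 0.281). Rpl36a, near the tRNA exit site, was at 51.8, 52.9 and 51.2 CPM in WT and 48.8, 47.8, 46.7 and 47.7 CPM in 1b+/- mice (log2 -0.12, SE 0.04, edgeR adjusted p = 0.281).
The groups did not overlap for either gene. Rpl39, a small protein lining the exit tunnel, was at 42.8, 41.6 and 41.6 CPM in WT and 38.9, 36.8, 38.9 and 39.4 CPM in 1b+/- mice (log2 -0.13, SE 0.04, edgeR adjusted p = 0.323). Rpl17 (log2 -0.10, edgeR adjusted p = 0.288) and Rps29 (log2 -0.13, edgeR adjusted p = 0.304) had smaller p-values than Rpl39.

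The lowest estimate was that of Rps4l (log2 -0.18, SE 0.10, edgeR adjusted p = 0.508), at 19.2, 18.4 and 24.7 CPM in WT and 18.1, 18.1, 18.7 and 18.1 CPM in 1b+/- mice. The groups overlapped, and without WT replicate 3 the estimate was -0.05. Rpl22l1 and Rpl27, a large subunit protein, had estimates of -0.16 and -0.15. The estimates nearest to 0 were those of Rpl6, Rps20 and Rpl7l1, each at -0.01. The 1 member with a higher estimate was Rps27, a zinc-binding protein of the small subunit, at 1.27, 0.884 and 0.838 CPM in WT and 1.38, 1.36, 1.29 and 1.53 CPM in 1b+/- mice (log2 0.47, SE 0.22, edgeR adjusted p = 0.46). Its values rest on 19 to 44 counts per library.

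**Figure D2:**
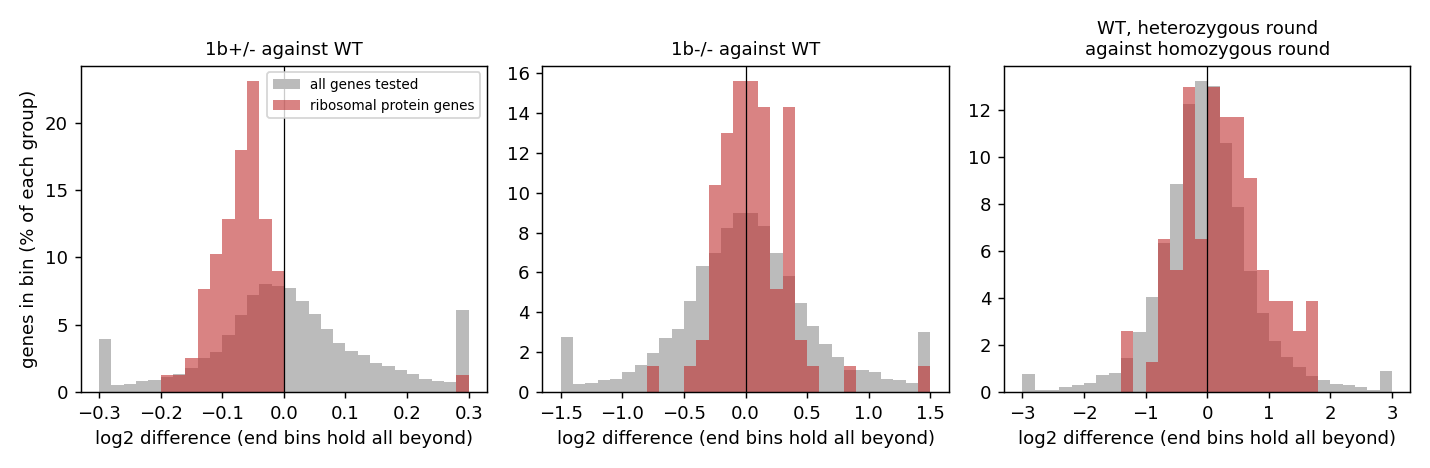
Each panel plots the percent of ribosomal protein genes (red) and of all genes tested (grey) in bins of the log2 difference, for 1b+/- against WT, 1b-/- against WT, and WT mice of the heterozygous against the homozygous round; end bins hold all values beyond them. In the first panel 77 of 78 red genes lie below 0 with a median of -0.06, and in the second 34 of 77 do.

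The 1-sided pattern differed from library to library. Against the mean of the 3 WT mice on the log2 scale, 74, 75, 68 and 65 of the 78 members were lower in 1b+/- replicates 1 to 4, with medians of -0.09, -0.07, -0.06 and -0.05. In WT replicate 1 the median was -0.04 and 69 members were below the WT mean, whereas in WT replicates 2 and 3 the medians were 0.01 and 0.02. WT replicate 1 thus lay nearer to the 1b+/- libraries than to the other WT libraries. Leaving out each library in turn kept the count of lower estimates between 72 and 77 and the median between -0.09 and -0.05. The count at an unadjusted p under 0.05 moved more, to 5 without WT replicate 3 (3.99% of all genes), 8 without WT replicate 2 (3.92%) or 1b+/- replicate 1 (4.54%), 11 without 1b+/- replicate 2 (5.28%) and 30 without WT replicate 1 (7.91%).

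Coding length moved with the same estimates. Among other genes the median log2 fold change in 1b+/- mice was -0.02 for the 302 genes of up to 300 coding bases, -0.03 for the 877 genes over 300 and up to 500 bases, and 0.04 for the 1668 genes over 3000 bases. Ribosomal protein genes of the same lengths had medians of -0.10 (9 genes) and -0.07 (37 genes). The 19 members over 500 and up to 750 bases and the 10 over 750 and up to 1000 bases had medians of -0.06 and -0.07, against -0.02 and -0.01 for other genes of those lengths. Across the 77 members with a coding length, length and estimate had a Spearman rho of 0.29 and a Pearson r of 0.05, as a description across genes of the same 7 libraries. The part of length in the pattern was not tested.

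**Figure D3:**
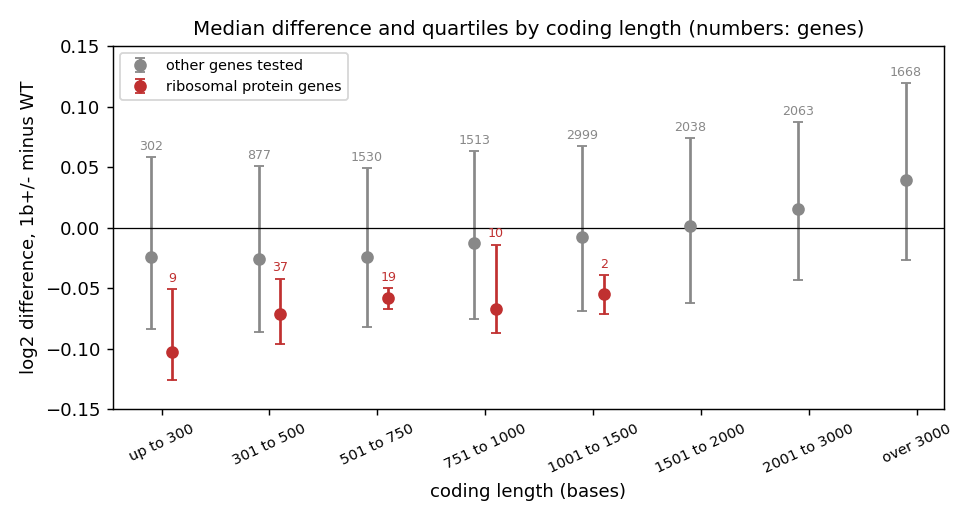
Median log2 difference between 1b+/- and WT mice (points) with quartiles (bars) for genes in classes of coding length in bases; red points are ribosomal protein genes, grey points other genes tested, and the numbers give the genes in each class. Other genes run from -0.02 in the shortest class to 0.04 in the longest, and the red points lie between -0.10 and -0.05.

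Members with a C at the annotated start followed by at least 4 C or T were set beside the others. The 13 that met this rule had a median of -0.06 (12 lower, 1 higher, the latter Rps27). The 45 others with a promoter had a median of -0.07 (45 lower). Those others included genes with a long run of C and T over the start, such as Rpl7a with 21 bases. Presence of a pyrimidine run as such was therefore not compared. Members whose every stretch of 50 bases had a copy elsewhere had a median of -0.05 (28 genes), and those with copies of under 50% of their stretches also had a median of -0.05 (13 genes).

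Genes that work beside the ribosome were given by lists. Of 77 mitochondrial ribosomal protein genes, which build the separate ribosome of that organelle, 67 had a lower estimate in 1b+/- mice (median -0.06) and 0 passed the test. Fau, which encodes a ribosomal protein fused to a ubiquitin-like protein, had a log2 fold change of -0.12. Among 8 elongation factor genes 6 had a lower estimate (median -0.05), among 12 eIF3 subunit genes 9 (median -0.02), among 30 ribosome biogenesis genes 22 (median -0.04), and among 18 genes of the cap-binding and mTOR branch 7 (median 0.01). None of the genes in these lists passed the test in this comparison. Of the markers of other cells, 7 of 7 oligodendrocyte genes had a higher estimate (median 0.35), 11 of 13 striatal genes a lower one (median -0.49), and 8 of 8 choroid plexus genes a higher one (median 0.61). Of the rest, 4 of 5 dentate granule (median 0.22), 3 of 4 CA1 and CA3 (median 0.10), 3 of 5 endothelial (median 0.09) and 4 of 5 neuron genes (median 0.03) had higher estimates. Lower ones were found for 7 of 8 microglia (median -0.08), 3 of 5 astrocyte genes (median -0.09) and the 1 red blood cell gene tested. None of these genes passed the test, and their part in the members' estimates was not tested.

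The comparison of 1b-/- with WT mice rested on 2 libraries each. One member passed the test, Rps4l, among 77 (3.58% of all 14838 genes passed). Estimates fell on both sides, 34 lower and 43 higher, with a median log2 fold change of 0.06 against 0.00 over all genes. With library totals in place of TMM the median of the members was -0.02 and that of all genes -0.07. At an unadjusted p under 0.05, 8 members were higher (13.6% of all genes) and 6 lower (12.8%). DESeq2 called 4 members (14.4% of all genes), and a fit of all 11 libraries, which takes its spread from both rounds, called 26 of 78 (37.2% of all genes). In 47 members, 22 lower and 25 higher, the 2 groups did not overlap, against 59.7% of all genes. The median absolute log2 fold change of the members, 0.17, was below that of all genes, 0.31, and 1 of 77 members exceeded 1 in absolute value, against 10.6% of all genes.

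Rps4l was at 191 and 173 counts in WT and 1075 and 835 counts in 1b-/- mice, or 8.63 and 8.10 CPM against 30.5 and 26.2 CPM. Both 1b-/- libraries were above both WT libraries, 3.39-fold on average (log2 1.76, SE 0.17, edgeR adjusted p = 0.0211). In the other round the same gene stood at 18.1 to 24.7 CPM, between these groups, where the tables were scaled separately. The estimate ranged from 1.65 to 1.87 over 14 alternatives, and the adjusted p from 3.09e-11 to 0.101. The call was lost in the 2 fits that left 1 WT mouse, where the lone WT mouse was assumed to vary like the others. The estimate was 1.81 without WT replicate 1 and 1.72 without WT replicate 2, the libraries with the striatal markers. The call stood in the fits that left 1 1b-/- mouse, which held as many libraries. The part of those 2 WT libraries in the loss of the call was not tested. An exact two-sided permutation test on 2 against 2 cannot go below p = 0.333, which it gave. Rps4l lies within the span of Tmtc1 on the opposite strand, outside its annotated exons. Tmtc1 itself had a log2 fold change of -0.76 (SE 0.14, edgeR adjusted p = 0.0515) and was looked up after the values were seen.

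Beside Rps4l, the members with the smallest p were Rpl39, Rpl23 and Rpl13, none past the test in the 4 libraries. Rpl39 was at 31.5 and 34.5 CPM in WT and 18.5 and 20.4 CPM in 1b-/- mice (log2 -0.76, SE 0.14, edgeR adjusted p = 0.0577). Rpl23, a large subunit protein that also binds Mdm2, was at 239.9 and 259.4 CPM in WT and 178.3 and 177.2 CPM in 1b-/- mice (log2 -0.49, SE 0.12, edgeR adjusted p = 0.0853). For both genes the groups did not overlap and 1b-/- mice were the lower.
Rpl13, another large subunit protein, was at 105.7 and 84.4 CPM in WT and 139.8 and 125.1 CPM in 1b-/- mice (log2 0.48, SE 0.15, edgeR adjusted p = 0.136). Rps28, a small subunit protein near the mRNA exit, was at 30.5 and 16.6 CPM in WT and 42.3 and 44.6 CPM in 1b-/- mice (log2 0.88, SE 0.29, edgeR adjusted p = 0.144). Rpl41 was at 161.3 and 109.0 CPM in WT and 192.2 and 201.5 CPM in 1b-/- mice (log2 0.54, SE 0.21, edgeR adjusted p = 0.179). In these 3 genes WT replicate 1 was above WT replicate 2 and below both 1b-/- mice.

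**Figure D4:**
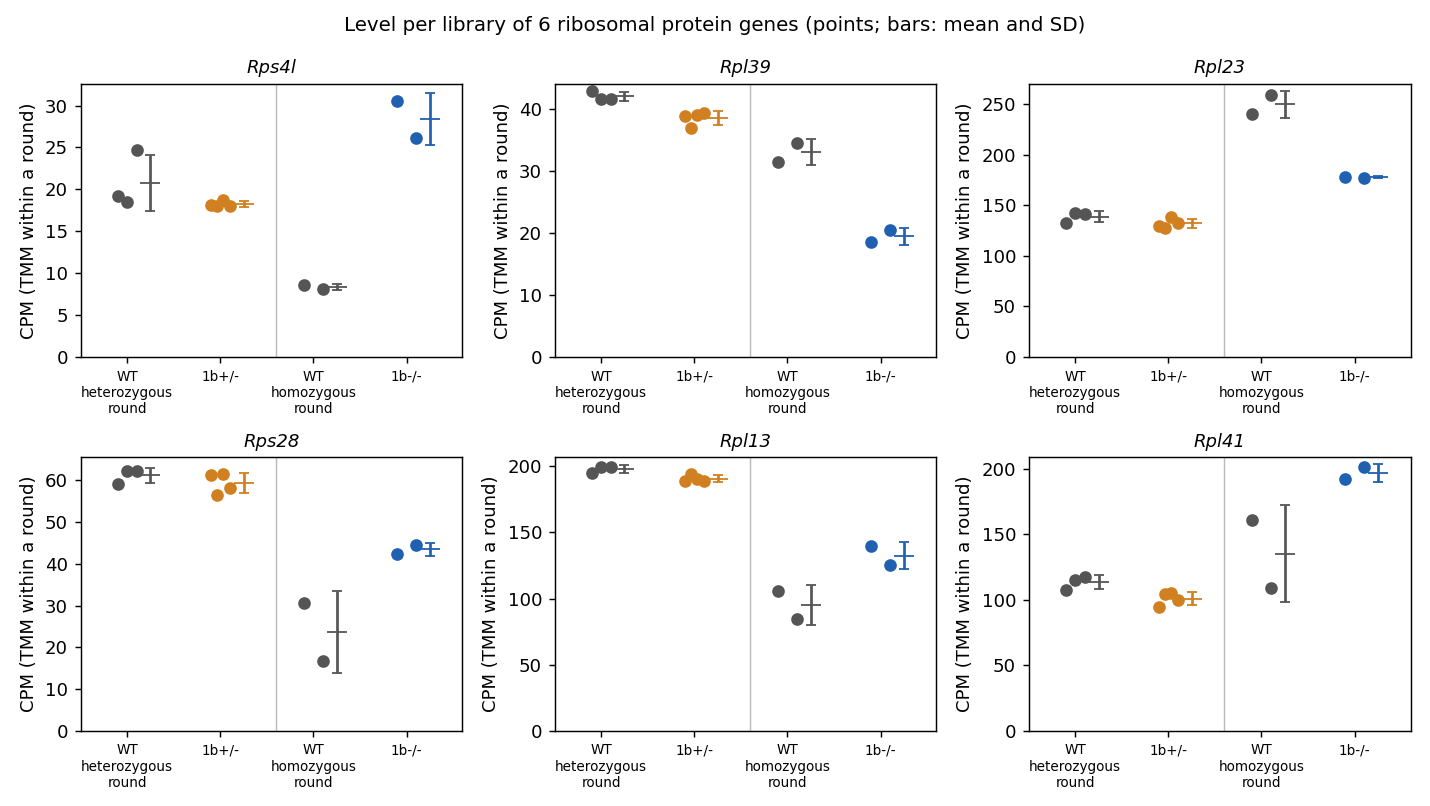
CPM after TMM scaling within a round for Rps4l, Rpl39, Rpl23, Rps28, Rpl13 and Rpl41, with each library a point and the group mean and SD beside it; the vertical line separates the rounds, which were scaled separately. Rps4l rises from 8.10 and 8.63 CPM in WT to 26.2 and 30.5 CPM in 1b-/- mice, and the WT values of Rpl41 overlap between the rounds.

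The stalk proteins had estimates of opposite sign. Rplp0, the base of the stalk, was at 151.5 and 128.3 CPM in WT and 184.6 and 175.1 CPM in 1b-/- mice (log2 0.36), and Rplp1 had an estimate of 0.19. Rplp2, their acidic partner, was at 145.7 and 128.8 CPM in WT and 102.9 and 108.7 CPM in 1b-/- mice (log2 -0.37). The edgeR adjusted p was 0.17 for Rplp0, 0.475 for Rplp1 and 0.14 for Rplp2, so none passed. Rps6 (log2 0.06), Rpsa (log2 -0.05), the precursor of a laminin receptor, and Rps27a (log2 -0.19), made as a fusion with ubiquitin, did not pass either.

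Base composition and repeated sequence moved with these estimates. Across 76 members with coding sequence, the estimate and the percent of G and C bases had a Spearman rho of 0.47 and a Pearson r of 0.51, where all 13431 genes with coding sequence gave 0.33 and 0.22. The 24 members of at most 50.2% GC had a median of -0.05 and the 26 of at least 54.5% a median of 0.18, against -0.18 and 0.17 for all genes in those ranges. Members with copies of every stretch of 50 bases had a median of -0.05 (28 genes) and those with copies of under 50% a median of 0.13 (13 genes, 11 of them higher, among them Rps4l). The points share the same 4 libraries, and the part of either property was not tested.

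None of the translation lists had a gene past the test in this comparison. Of 12 eIF3 subunit genes, which position the small subunit on the mRNA, 11 had a higher estimate (median 0.15), with Eif3f at a log2 fold change of 0.51 (edgeR adjusted p = 0.0719). Mitochondrial ribosomal protein genes were 29 lower and 47 higher (median 0.04), elongation factor genes 4 and 4 (median 0.02), ribosome biogenesis genes 13 and 17 (median 0.05) and cap-binding and mTOR genes 6 and 12 (median 0.11). Among marker lists, 13 of 13 striatal genes had a lower estimate (median -4.36), and 10 of them passed the test. Higher estimates were found for 4 of 4 CA1 and CA3 genes (median 1.92, 3 past the test). The same held for 4 of 5 dentate granule cell genes (median 2.48, 2 past the test). No gene passed in the other lists, where 8 of 8 choroid plexus (median 1.26), 4 of 5 astrocyte (median 0.11), 5 of 5 neuron (median 0.26) and the 1 red blood cell gene tested had higher estimates. Lower estimates were found for 7 of 8 microglia (median -0.22), 7 of 7 oligodendrocyte (median -0.57) and 5 of 5 endothelial genes (median -0.41). Their part in the members' estimates was not tested.

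A test of the difference between the 2 genotypes' changes, in 1 fit of all 11 libraries, called 17 of 78 members (27.3% of all 14905 genes). This fit takes 1 spread per gene from both rounds. The variation between mice that edgeR estimated over all genes was 9.13% in the heterozygous round, 22.9% in the homozygous round and 14.1% in this fit. Its p-values may therefore be too small where the difference rests on the homozygous round. The change was more positive in 1b-/- mice in 10 and more negative in 7. The largest was that of Rps4l (log2 1.94, SE 0.18, edgeR adjusted p = 0.000115), followed by p in Rpl39 (log2 -0.64, adjusted p = 0.00128) and Rpl23 (log2 -0.43, adjusted p = 0.00582). Among the others were Rps28 (log2 0.92), Rpl41 (log2 0.70), Rpl13 and Rpl18 (both log2 0.53), Rplp0 (log2 0.37) and Rplp2 (log2 -0.34). The share of members called was below that of all genes. The count was 9 with sex as a covariate (20.8% of all genes), 11 without 1b-/- replicate 1 (26.3%) and 37 without WT replicate 1 of the homozygous round (33.7%). Of the 77 members tested in both rounds 33 had a lower estimate in both genotypes, 43 a lower one in 1b+/- and a higher one in 1b-/- mice, and 1, Rps27, the reverse.

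WT mice of the 2 rounds differed more than the genotypes did, in the members as in all genes. The median absolute log2 difference of the members was 0.47 between rounds, 0.17 between 1b-/- and WT mice and 0.07 between 1b+/- and WT mice. Over all genes tested the same 3 values were 0.41, 0.31 and 0.07. Of 77 members 37 passed the test as higher in the heterozygous round (23.8% of all 14666 genes did) and 14 as lower (24.0% of all genes). The median log2 difference was 0.23 against -0.03 over all genes. On a scale common to all 11 libraries, Rpl27 was at 61.9, 68.1 and 69.1 CPM in heterozygous-round WT mice and 18.7 and 20.5 CPM in homozygous-round WT mice (log2 1.74, SE 0.10, edgeR adjusted p = 0.000188). Rpl22l1 was at 39.7, 41.5 and 43.2 CPM against 11.98 and 12.60 CPM (log2 1.74, SE 0.09, edgeR adjusted p = 0.00017). These are 3.35-fold and 3.34-fold differences, while between genotypes Rpl27 had estimates of -0.15 and 0.07 and Rpl22l1 of -0.16 in both rounds.
In the other direction, Rps12, a small subunit protein, was at 71.3, 73.2 and 70.9 CPM against 163.2 and 176.5 CPM (log2 -1.26, SE 0.07, edgeR adjusted p = 0.000204), and Rplp2 at 54.6, 59.6 and 59.2 CPM against 143.0 and 126.9 CPM (log2 -1.24, SE 0.09, edgeR adjusted p = 0.000391). Rps10 (log2 1.62), Rpl15 (log2 1.46) and Rpl23a (log2 1.34) were also higher in the heterozygous round, and Rpl23 (log2 -0.80) lower. Scaling by library totals or by upper quartiles moved the median of all genes to -0.13 and -0.11 and that of the members to 0.14 and 0.16.

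**Figure D5:**
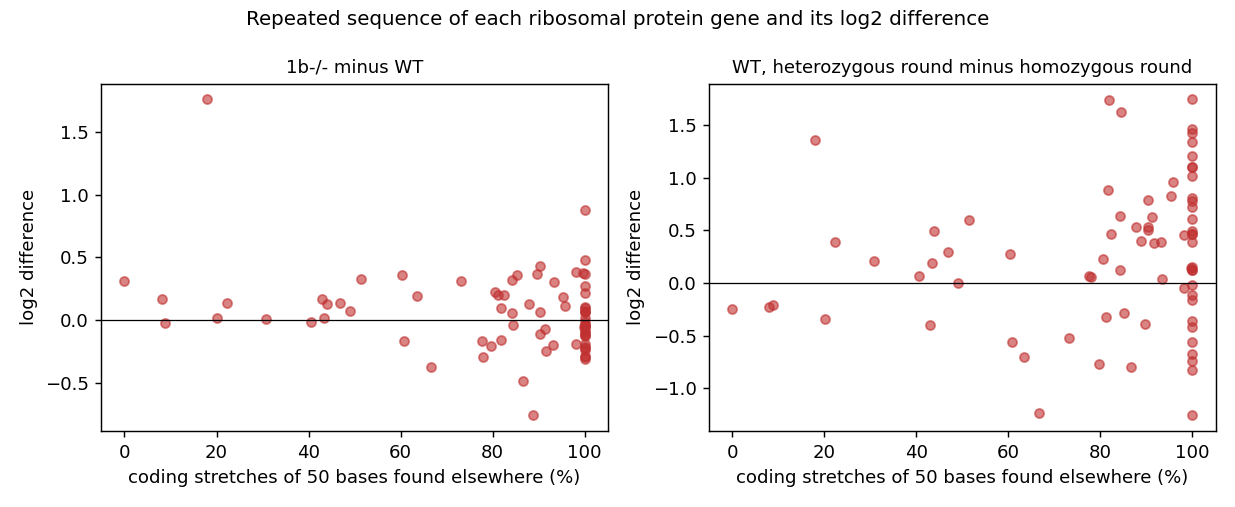
Each point is a ribosomal protein gene, plotted by the percent of its coding stretches of 50 bases found elsewhere in mm9 and by its log2 difference, for 1b-/- minus WT mice (left) and for WT mice of the heterozygous minus the homozygous round (right). On the right, the 28 genes at 100% spread from -1.26 to 1.74, and the 13 below 50% from -0.39 to 1.36.

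Repeated sequence and the difference between rounds had a Spearman rho of 0.21 and a Pearson r of 0.18 over 76 members, against 0.11 and 0.17 over 13267 genes. The 28 members with copies of every stretch had a median of 0.47 and spread from -1.26 to 1.74, and the 13 with copies of under 50% a median of 0.07 from -0.39 to 1.36. Of 77 mitochondrial ribosomal protein genes, 41 passed the test as lower and 5 as higher in the heterozygous round (median -0.33). Of 18 cap-binding and mTOR genes, 9 passed as higher and 2 as lower (median 0.24). Striatal markers (12 of 12 lower) and oligodendrocyte markers (7 of 7 lower) also differed between the rounds. Among the WT mice, read type, dissection and these markers all went with the round and cannot be told apart. Over all 11 libraries the striatal markers did not go with the round. They summed to 302.5 to 395.2 CPM in 1b-/- mice and 285.4 to 326.2 CPM in 1b+/- mice. On the common scale Rpl27 was at 20.21 and 20.65 CPM in 1b-/- mice against 56.32 to 62.2 CPM in 1b+/- mice. For Rps12 the values were 145.0 and 129.7 CPM against 67.72 to 74.24 CPM. The part of the striatal markers was not tested. Sex went with the round among the WT mice but not over all 11 libraries, where a fit with sex as a covariate called 54 of 78 members (39.0% of all genes) with a median of 0.25.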

How the data were processed

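RNA-seq of hippocampus from 11 mice was analysed in the 2 rounds in which it was sequenced. The authors deposited raw counts for each gene. Per the labels, reads were aligned to mm9 with STAR 2.7.2 and counted with featureCounts. The values are whole numbers that include genes at 0 and sum to a different total in each library. The strand setting of the counting and its treatment of reads with several matches are not given in the sources used here, so genes with copies elsewhere or overlapping partners are uncertain. Where the labels name a table for a sample, the column names place it in the other table, and the column names were followed. No table column was left unused (0 columns). Each table held 27 symbols turned into dates, kept within a round and dropped where tables were joined (23644 genes).

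Genes reaching 1 CPM in at least 1 library were fitted with edgeR 4.0.16 in R 4.3.3 (TMM factors, estimateDisp, glmQLFit, glmQLFTest), genotype as the only term, p-values adjusted by Benjamini-Hochberg across every gene tested and a threshold of 0.05. Rounds were compared in the 5 WT libraries, and the difference between genotypes in all 11. Library totals, from 20667122 to 36145161 counts, leave the spread between mice rather than counting error as the limit for most members. Members with few counts are an exception, such as Rps27 (SE 0.22) and Rpl34 (SE 0.27) in the heterozygous comparison. Each library is taken to be 1 mouse. The fit was tested on simulated data in which 200 genes were given log2 changes of 1.5. It recovered 97% with 9 false calls among 14630 genes of the heterozygous comparison. In the homozygous one it recovered 68.9% with 21 false calls among 14838 genes. Changes as small as the members' estimates in 1b+/- mice (median absolute log2 0.07) were not simulated. Sequence copies were counted by exact matches of coding stretches in mm9, on both strands, with the coding sequences of GENCODE vM1. Alternatives were RLE, upper-quartile and no factors, TMM without the members, filterByExpr, no filter, DESeq2 1.42.0, the likelihood ratio test, sex as a covariate (over all 11 libraries for the rounds), 1 fit of all libraries and each library left out.

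The members and the gene lists were chosen with earlier results of these data known. The members named were those past the test for a genotype or the difference (up to 15 each), the 4 largest, 4 smallest and 4 smallest p per comparison, the 5 highest and 5 lowest mean CPM, 7 paralog pairs, Rplp0, Rplp1, Rplp2, Rpsa, Rps6 and Rps27a, and of each list at most 2 genes. Others were named after their values were seen, and some members are not reported here.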

Additional observations from a re-analysis of the deposited data

Results flagged for a closer look

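Between the 2 genotypes, 17 members differed in their change by the test of the difference itself (edgeR's quasi-likelihood test in all 11 libraries). That fit pools the unequal spread of the 2 rounds, so its p-values may be too small. Among those reported here, the change in 1b-/- minus that in 1b+/- mice, on the log2 scale, was 1.94 for Rps4l, 0.92 for Rps28, 0.70 for Rpl41, 0.53 for both Rpl13 and Rpl18, 0.43 for Rpl10a, 0.41 for Rps2, 0.37 for Rplp0 and 0.36 for Rpl7a. It was -0.64 for Rpl39, -0.43 for Rpl23, -0.34 for Rplp2, -0.30 for Rpl23a, -0.28 for Rps12 and -0.24 for Rpl14. In this comparison 27.3% of all genes passed the same test, against 17 of 78 members, and both WT mice of the homozygous round carried the striatal markers described above.

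Among the 4 1b+/- mice, 1 library stood apart for 2 of the 39 values looked at, where chance gives about 1 in 20. Rps2 was at 293 CPM in 1b+/- replicate 2 and at 277 to 279 CPM in the others, and Rps4l at 18.7 CPM in replicate 3 and at 18.1 CPM in the others.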

How the results depend on the processing

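No paired analysis was possible because the replicate numbers follow accession order and pair no mice. The 0 calls in 1b+/- mice held in each of 17 alternatives. The count of members lower at an unadjusted p under 0.05 there was 20 (5.95% of all genes). It was 12 with upper-quartile factors (4.92%), 11 with library totals (4.7%) and 8 with the likelihood ratio test (4.48%). In the fit of all 11 libraries it was 4 (2.54%), and with a library left out 5 to 30 (3.92 to 7.91%). Lower estimates numbered 71 of 78 with library totals and 72 to 77 with a library left out, and the median ran from -0.086 to -0.049. In 1b-/- mice the 1 call (3.58% of all genes) became 2 with library totals (4.04%) or without a filter (5.42%). It became 3 with the likelihood ratio test (12.3%), 4 with DESeq2 (14.4%) and 26 in the fit of all 11 libraries (37.2%). The median of 0.056 became -0.018 with library totals and 0.009 to 0.082 with a library left out. For the difference, 17 calls became 9 with sex as a covariate and 11 to 37 with a library left out; the median of 0.103 became 0.022 with library totals and 0.064 to 0.138 with a library left out. The share of all genes called for the difference moved as well, from 27.3% to 20.8% with sex as a covariate. With a heterozygous-round library left out it was 19.2 to 24.8%, where 12 to 15 members were called. Between rounds, the median of 0.229 became 0.155 with upper-quartile factors, 0.136 with library totals and 0.184 to 0.332 with a library left out. The 51 calls (47.7% of all genes) became 40 to 44 with a heterozygous-round WT library left out (30.8 to 36.0%). They became 62 in the fit of all 11 libraries (54.4%). Without Rn45s in the total the members' share was 1.029% in WT and 0.983% in 1b+/- mice of the heterozygous round; with a library left out it ran from 0.981 to 0.999% and 0.945 to 0.961%, and from 0.944 to 1.014% in WT and 0.932 to 0.981% in 1b-/- mice of the other round. The tables hold no mitochondrially encoded genes, so a total without them could not be tried. No named member reversed with a call under any alternative, and the cause of the other shifts was not tested.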
